A study of Sus scrofa with 297 samples.

Results

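The mitochondrial carriers of the SLC25 family were examined in the livers of German Landrace pigs. Genes with a symbol of the form SLC25A and a number, or UCP2 or UCP3, were taken from the annotation of the array, and SLC25A13, SLC25A15, SLC25A20 and SLC25A25 were left out. This gave 33 genes out of 13755 genes with a symbol, represented by 53 probe sets. For each gene the probe set with the highest mean was used. The livers were taken at slaughter from adult pigs of 1 breed, with 1 Affymetrix Snowball array per pig, and no pig was treated, so all livers form a single group. For all but 8 pigs the labels also hold the area of the loin muscle at the rib (loin eye area, LEA), the area of the fat above it (FA) and a ratio of both (MFR), and whether hepatic transcripts follow such traits was one question of the study. In every pig with traits MFR equalled FA divided by LEA within 0.01, so that a high MFR stands for much fat beside little loin. The median was 43.3 cm2 for LEA (27.8 to 68.4), 14.4 cm2 for FA (2.4 to 30.0) and 0.32 for MFR (0.06 to 0.74).

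Proteins of the SLC25 family lie in the inner mitochondrial membrane, with few exceptions such as the peroxisomal SLC25A17. They exchange nucleotides, phosphate, di- and tricarboxylates, amino acids, cofactors and protons between cytosol and matrix. In liver they link oxidative phosphorylation, the export of citrate for fatty acid synthesis, the malate-aspartate shuttle, amino acid breakdown and haem synthesis.

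The values are log2 signals normalised over all arrays. Transcripts were tested if they belonged to the upper 52% of probe sets by the 20th percentile of signal, which kept 24815 transcripts, the lowest with a 20th percentile of 5.33. The medians of the tested transcripts on single arrays ranged from 6.88 to 7.01. Of the hepatocyte markers 7 of 7 were tested, and their mean ranged from 12.92 to 13.22 over the livers, with ALB at a mean of 13.95. Of the adipocyte markers on the array 3 of 5 were tested (means from 6.27 for ADIPOQ to 8.28 for CIDEC, with LEP and FABP4 below the filter), and of the skeletal muscle markers 5 of 7 (5.66 for CKM to 7.04 for ACTA1, with MYH7 and MYLPF below it). The mean of a marker list was taken over all its markers on the array, also those below the filter. Animal numbers with the same first 2 digits formed 9 number series, 21 to 29, of 29, 19, 31, 28, 21, 9, 20, 46 and 94 pigs, which together are all livers. The labels do not say what these series mark, and they were used as the only possible batch. In whole liver, fewer cells of a type and less RNA per cell cannot be told apart. Arrays have no read depth, and their number limits the precision.

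Of the 33 carriers 30 passed the filter. SLC25A14 (mean 5.14), SLC25A31 (4.24), an ADP/ATP carrier known from testis, and SLC25A33 (4.88), a pyrimidine nucleotide carrier, did not pass and are described by these values alone. The following results concern the other 30. Signals of different probe sets depend on their probes, and the order of the means is not an order of transcript abundance.

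Among the ADP/ATP carriers, which exchange matrix ATP for cytosolic ADP, SLC25A4 had a log2 signal of 11.43 ± 0.17 (mean ± SD over all livers, as for the other carriers), with the lowest liver at 10.76, the median at 11.45 and the highest at 11.83. SLC25A5 had 10.68 ± 0.30 (9.97 to 11.95) and SLC25A6 had 7.14 ± 0.23 (6.54 to 7.79). These proteins are closely related paralogs, and how far their probes share signal was not tested. The phosphate carrier SLC25A3 had a signal of 9.55 ± 0.23. The calcium-regulated carrier of Mg-ATP and phosphate, SLC25A24, had 5.89 ± 0.26 (5.02 to 6.81), close to the filter.

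The carrier with the largest SD was SLC25A30, a relative of the uncoupling proteins found in kidney mitochondria. Its log2 signal ranged from 7.98 to 12.17 with a median of 9.25 and an SD of 0.82, against a median SD of 0.27 over all tested transcripts. The pig at the 95th percentile exceeded the pig at the 5th percentile 6.12-fold. The distribution was skewed, since the 5th percentile was 8.48 and the 95th was 11.09, far above the median. A second probe set of SLC25A30 followed the first with a rho of 0.948. SLC25A42 (SD 0.40, 6.89 to 9.59), a carrier of coenzyme A, had the next largest SD. It was followed by SLC25A34 (0.39, 7.23 to 9.53), an orphan carrier, SLC25A17 (0.39, 8.17 to 10.42), which carries coenzyme A, FAD and NAD in peroxisomes, and SLC25A35 (0.38, 8.42 to 10.60), another orphan. At these positions the SDs lay close together, and only SLC25A30 stood far from the rest.

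**Figure D1:**
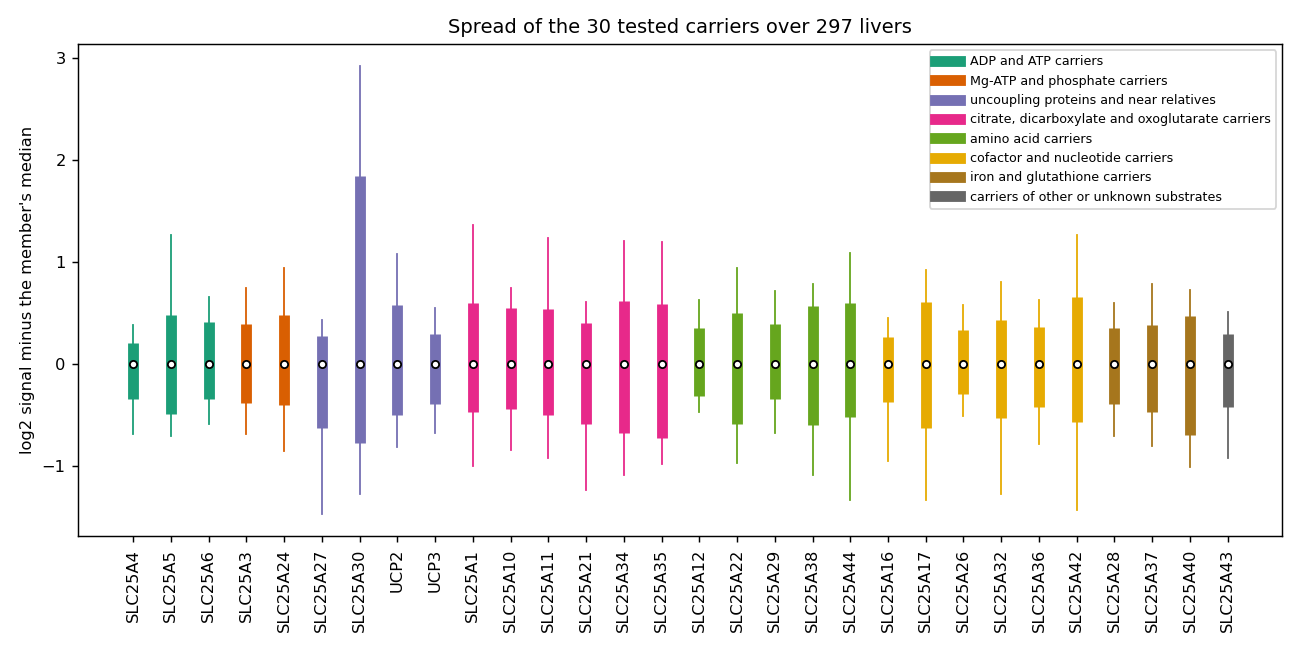
Spread of the 30 tested carriers over all livers. The y axis is the log2 signal minus the carrier's own median, thick bars run from the 5th to the 95th percentile, thin lines from the lowest to the highest liver, white points are the medians, and colours give the role of the carrier. SLC25A30 reached from 7.98 to 12.17 in log2 signal, while SLC25A4 stayed between 10.76 and 11.83.

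SLC25A27, a relative of the uncoupling proteins known from brain, had a signal of 10.35 ± 0.29 (8.96 to 10.86), and SLC25A1, which exports citrate to the cytosol, had 10.08 ± 0.35 (9.05 to 11.41). Nearer to the filter were UCP3 (6.88 ± 0.21), an uncoupling protein best known from muscle, SLC25A36 (6.71 ± 0.24), a pyrimidine nucleotide carrier, SLC25A12 (6.58 ± 0.21), an aspartate/glutamate carrier, and SLC25A22 (6.42 ± 0.34), a glutamate carrier. UCP2, the uncoupling protein of many tissues, had 7.16 ± 0.33. The means of the other carriers ranged from 7.11 for SLC25A43, whose substrate is not settled, to 9.49 for SLC25A17.

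Probe sets of 1 gene did not always move together. SLC25A44, which carries branched-chain amino acids, had 3 tested probe sets, with a rho of 0.835 and 0.379 between the one used and the others. For SLC25A42 the values were 0.871 and 0.0796, for SLC25A29, a carrier of basic amino acids, 0.428 and 0.353, and for SLC25A6 the single other tested probe set had a rho of 0.285. The second probe set of SLC25A4 was below the filter and had a rho of 0.0377 with the first.

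Levels differed between number series for nearly all carriers. In limma's F test with Benjamini-Hochberg adjustment over all tested transcripts, 29 of 30 carriers passed an FDR of 1%, beside 88.1% of all tested transcripts. The exception was SLC25A22 (FDR = 0.037). The number series held a median of 16.6% of the rank variance of the carriers, against 14.5% for all tested transcripts, which is a small difference.

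SLC25A44 was the carrier most tied to the number series, which held 57.4% of its rank variance. Its median was 9.47 in number series 29 (94 pigs, 8.95 to 10.20) and 9.24 in number series 28, against medians of 8.82 to 9.16 in the other 7 series. The ranges of the series overlapped, but 29 had no pig below 8.95, a value above the medians of 21 to 24. The other 2 probe sets of SLC25A44 had 39.5% and 25.4% of their rank variance between series.

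SLC25A3 ran the other way, with medians of 9.33 and 9.42 in number series 28 and 29 and medians of 9.54 to 9.77 in the other series (39.1% of rank variance between series). SLC25A30 (32.3%) was highest in number series 27, with a median of 10.62 (8.56 to 12.17, 20 pigs), and lowest in 22, with a median of 8.78 (8.03 to 10.51, 19 pigs). In number series 28 with 46 pigs it had a median of 8.82 and no pig above 10.13. SLC25A32 (32.2%), which carries folate or FAD, had medians of 8.0 in number series 27 and 8.52 in 21, and SLC25A26 (25.8%), the carrier of S-adenosylmethionine, was between 8.04 in 28 and 8.36 in 21. For each of these 5 carriers the highest and the lowest series median lay farther apart than the SD within any series.

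**Figure D2:**
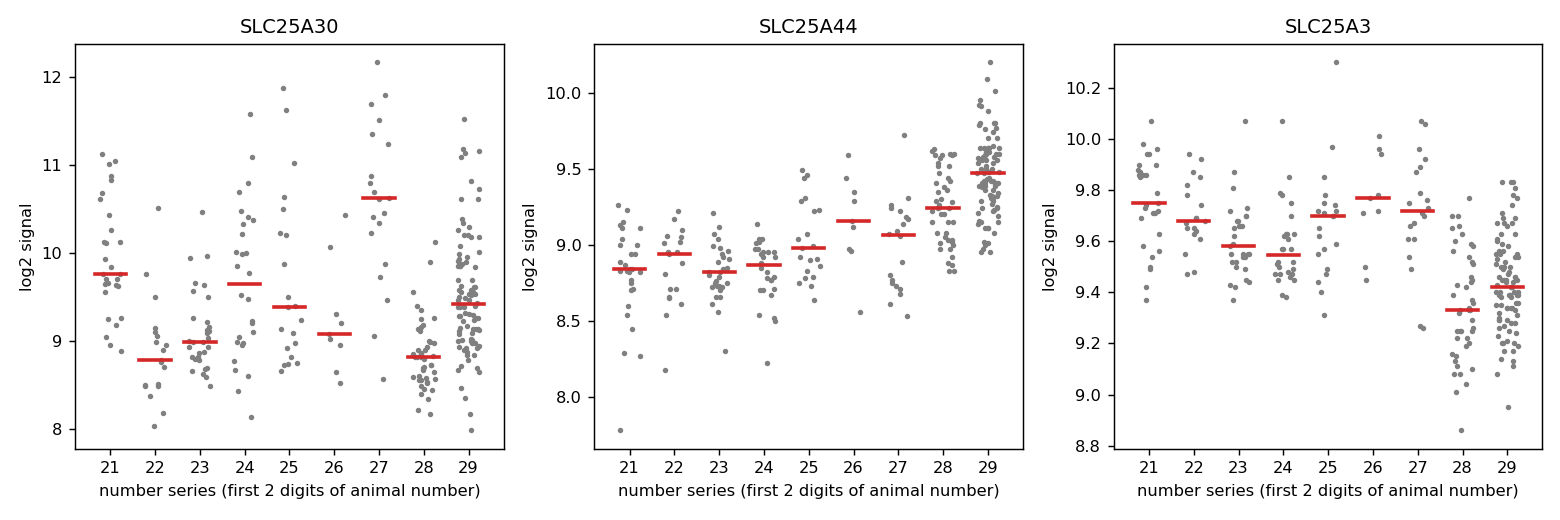
Log2 signal of SLC25A30, SLC25A44 and SLC25A3 in each liver by number series. Points are pigs and red lines are medians. SLC25A44 had its highest median (9.47) in number series 29, SLC25A3 its lowest (9.33) in 28, and SLC25A30 its highest (10.62) in 27.

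Spearman correlations between carriers were computed for all 435 pairs of tested carriers over all livers. The median rho was 0.0663, against 0.03 over all pairs of tested genes, and 23 pairs (5.29%) reached a rho of 0.5 in size, against 7.5% of all gene pairs. The share among the carriers was below that of all genes. Of these pairs 20 were positive, where 4.39% of all gene pairs were at 0.5 or more, and 3 were negative, where 3.1% were at -0.5 or less. Within number series, with ranks centred on their mean in each series, 20 pairs reached this size (4.86% of all gene pairs did so), 17 of them shared with the 23.

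Pairs of the same role had a rho of 0.5 in size in 8 of 53 cases, pairs of different roles in 15 of 382. Carriers of citrate, dicarboxylates and oxoglutarate held 7 of the 8 same-role pairs, out of 15 pairs among 6 carriers. The orphans SLC25A34 and SLC25A35 were counted in this role, so its pairs are not all between known carriers of these substrates. SLC25A1, the citrate carrier, SLC25A10, which exchanges malate and succinate for phosphate, SLC25A11, the oxoglutarate/malate carrier of the malate-aspartate shuttle, and the orphan SLC25A35 formed the core of this group. The 6 pairs among these 4 carriers had a rho between 0.565 and 0.721. SLC25A34 joined through SLC25A1 alone (rho = 0.508). The oxoadipate carrier SLC25A21, which serves lysine breakdown, ran apart from them, with a rho of -0.377 with SLC25A34. No other role had more than 1 such pair, and the ADP/ATP carriers had a rho between -0.207 and 0.226 with each other.

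**Figure D3:**
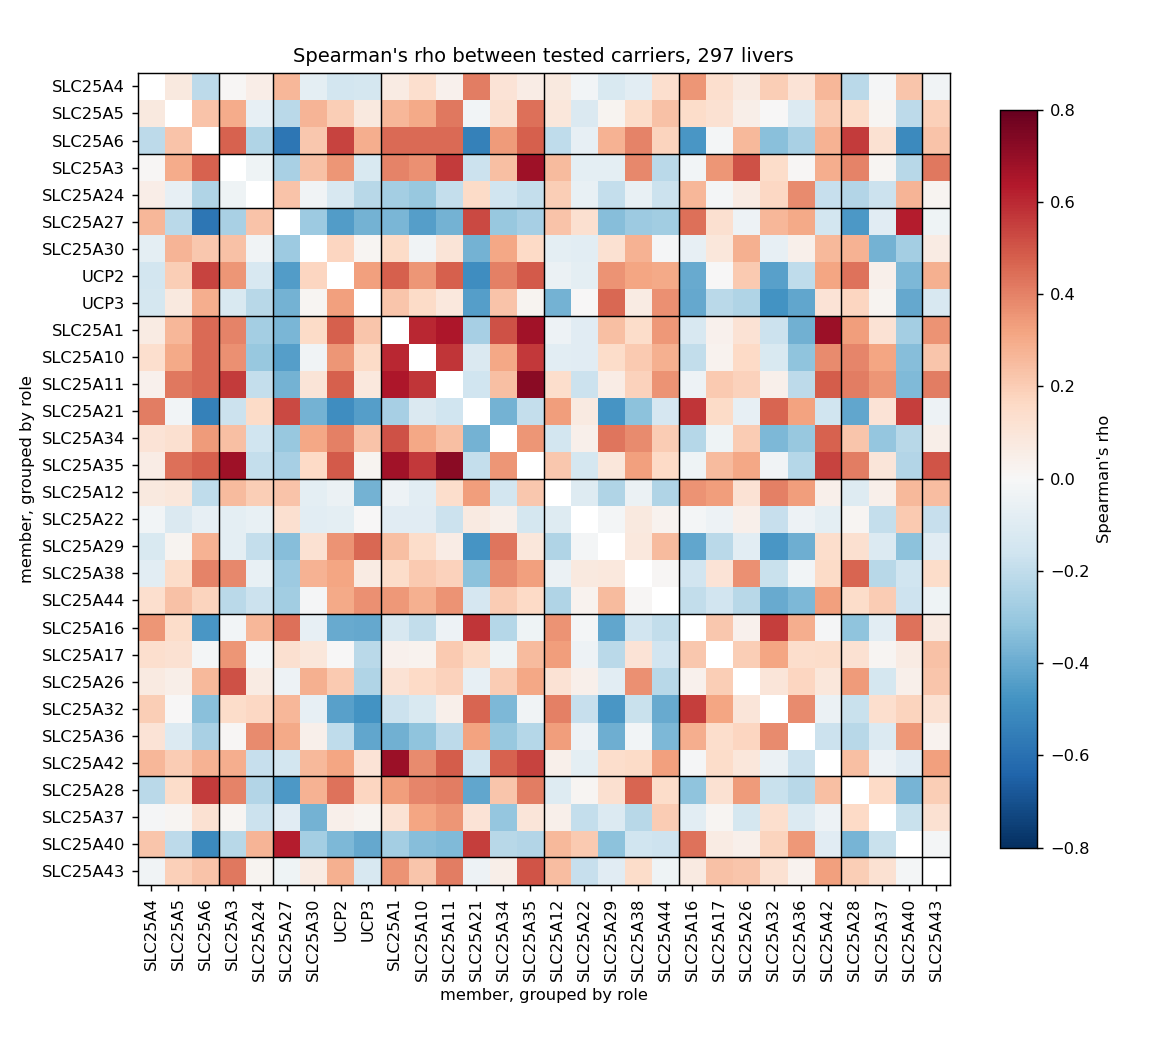
Spearman's rho between the 30 tested carriers over all livers, with red for positive and blue for negative values. Both axes list the carriers grouped by role, and black lines separate the roles. The block of SLC25A1, SLC25A10, SLC25A11 and SLC25A35 was positive throughout, with a highest rho of 0.721 between SLC25A11 and SLC25A35, and SLC25A27, SLC25A21 and SLC25A40 formed blue bands against SLC25A6 and UCP2.

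The pair with the highest rho was SLC25A11 with SLC25A35 (rho = 0.721, Pearson's r = 0.756). It was followed by SLC25A1 with SLC25A42 (rho = 0.687, r = 0.719), which brings the citrate carrier next to the coenzyme A carrier. SLC25A3 with SLC25A35 (rho = 0.677, r = 0.686), SLC25A1 with SLC25A35 (rho = 0.675, r = 0.698) and SLC25A1 with SLC25A11 (rho = 0.649, r = 0.709) came next. All 5 pairs were positive in 9 of 9 number series. SLC25A27 with SLC25A40, a relative of the mitochondrial glutathione carrier, had a rho of 0.627 (r = 0.675) and was positive in 9 of 9 series too.

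The lowest rho was found for SLC25A6 with SLC25A27 (rho = -0.579, r = -0.615), negative in 9 of 9 number series. SLC25A6 also ran against SLC25A21 (rho = -0.539, r = -0.544) and SLC25A40 (rho = -0.510, r = -0.522), and UCP2 against SLC25A21 (rho = -0.497, r = -0.517), each negative in 8 of 9 series. SLC25A6 was positive with UCP2 (rho = 0.542) and with SLC25A28, an iron importer (rho = 0.560). The 10 pairs named were the extremes of the 435, so that their size describes them. For each of them, rho and r had a permutation p of 1e-05, the smallest that 100000 permutations can give, and a Benjamini-Hochberg value over all gene pairs of 7.74e-19 or below. With the 2 most extreme pigs left out, r was 0.746 for SLC25A11 with SLC25A35 and -0.607 for SLC25A6 with SLC25A27. Within number series rho was 0.709 and -0.557 for these pairs.

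This opposition followed the first principal component of all tested transcripts, which held 27.8% of the variance. SLC25A21, SLC25A27, SLC25A40 and SLC25A16 had a rho of 0.658, 0.640, 0.628 and 0.612 with it, while SLC25A6, UCP3, UCP2 and SLC25A29 had -0.666, -0.608, -0.606 and -0.580. After removal of this component, chosen as an alternative after the data had been seen, SLC25A6 with SLC25A27 had a rho of -0.214 and SLC25A27 with SLC25A40 of 0.327, and 9 pairs reached 0.5 in size, 8 of them among the 23. The 5 named pairs of SLC25A1, SLC25A3, SLC25A11, SLC25A35 and SLC25A42 stayed above this size. After removal of 5 components no pair reached it. RNA quality was not measured in these files, and its part in the first component was not tested.

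SLC25A35 had the most partners among the carriers, with a rho of 0.5 or more with 6 of 29. Its rho was 0.5 in size with 878 of the 10449 tested genes outside the examined set (8.4%). This is near the 7.5% of all gene pairs. SLC25A6 (18.2%), SLC25A32 (11.7%), SLC25A1 (10.7%) and SLC25A11 (10.3%) reached this size with a larger share of all tested genes than SLC25A35. The genes closest to it were CDK4, a cell cycle kinase (rho = 0.870, r = 0.877), ATP6V0D1, a subunit of the vacuolar proton pump (0.844, r = 0.862), and POLR2F, a subunit of RNA polymerases (0.827, r = 0.847). Its probe set belongs to a class that may match several transcripts. The mean of the hepatocyte markers had a rho of -0.516 with SLC25A35 and that of the adipocyte markers 0.332. The T and NK cell (0.296), endothelial (0.283), erythroid (0.198), Kupffer cell and macrophage (0.183) and skeletal muscle (0.0647) markers were positive too. Those of bile duct (-0.199), pancreas (-0.108) and stellate cells (-0.0828) were negative. The part of these cell types in the relations of SLC25A35 was not tested.

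SLC25A30 had no partner of this size among the 29 other tested carriers, with its highest rho of 0.309 for SLC25A34 and its lowest of -0.381 for SLC25A37, the iron importer of haem-making cells. Among the genes outside the examined set 53 (0.507%) reached it. One of them, chosen after its values were seen, was SLC25A25, a carrier of Mg-ATP and phosphate that belongs to the family but was left out of the set (rho = 0.591). The closest gene was PLIN2, the coat protein of hepatic lipid droplets (rho = 0.722, r = 0.773, 0.637 within number series), then APOA4, an apolipoprotein of triglyceride-rich particles (0.696, r = 0.671), and ARFGAP3, a regulator of Golgi transport (0.688, r = 0.720). The most opposed gene was GPAM, the mitochondrial acyltransferase that starts triglyceride synthesis (rho = -0.636, r = -0.664, -0.523 within series). Livers with much SLC25A30 transcript thus tended to have much PLIN2 and little GPAM transcript. None of the 10 cell type marker lists had a rho above 0.226 in size with SLC25A30.

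The other named carriers had partners of other kinds. SLC25A42 was closest to DOLPP1, an enzyme of dolichol recycling (rho = 0.722, r = 0.748), HAPLN4 (0.719, r = 0.727) and SLC16A5, a monocarboxylate transporter of the plasma membrane (0.711, r = 0.716). SLC25A34 was closest to NDST1, an enzyme of heparan sulphate synthesis (0.643, r = 0.675), BDH1, the mitochondrial dehydrogenase of ketone bodies (0.610, r = 0.670), and RASSF5 (0.608, r = 0.614). The mean of the adipocyte markers had a rho of 0.399 with SLC25A34 and 0.306 with SLC25A42, that of the hepatocyte markers had -0.305 and -0.297, and that of the erythroid markers had 0.282 and 0.153. The part of other cell types in these relations was not tested. SLC25A17 had no gene of this size, and SLC16A1, a carrier of lactate and ketone bodies, was closest (0.447, r = 0.487), before EXT1 (0.432, r = 0.448) and NIPA2 (0.422, r = 0.436). SLC25A4 had none either. FMO5, a flavin monooxygenase of liver (0.500, r = 0.495), RFC5, a DNA replication factor (0.464, r = 0.534), and SLC25A13, the liver-type aspartate/glutamate carrier that was outside the examined set (0.448, r = 0.485), were closest to it. All these are descriptions over the same livers, which share arrays and number series.

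Carriers were also set beside enzymes that make or use their substrates. SLC25A11 was positive with 4 of 4 enzymes of the malate-aspartate shuttle, from a rho of 0.175 for MDH1 to 0.658 for MDH2, the mitochondrial malate dehydrogenase, with 0.386 for GOT1 and 0.486 for GOT2. The median of the 4 was 0.436 (0.415 within number series), against a median of 0.0787 over all tested genes. Some other carriers came near it over the same 4 enzymes, with medians of 0.407 for SLC25A10 and 0.397 for SLC25A1. SLC25A4 had a median of 0.00396. With MDH2 the rho of SLC25A1 was 0.664. SLC25A12, which works in the same shuttle, had a rho of 0.346 with MDH1 and values from -0.0887 to 0.0975 with the other 3. SLC25A1 was positive with 6 of 6 genes listed around cytosolic citrate and acetyl-CoA. Its rho was 0.286 for FASN and 0.262 for ACSS2, but only 0.165 for ACLY and 0.0113 for ACACA. The median of 0.141 was close to its median of 0.140 over all tested genes. The carriers with the highest medians over these 6 genes were SLC25A37 (0.348), SLC25A44 (0.276), SLC25A10 (0.265) and SLC25A21 (0.257).

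The ADP/ATP carriers were set beside the 13 tested genes of ATP synthase and its inhibitor. SLC25A5 was positive with 13 of 13 (median 0.164, highest 0.454 for ATP5B), where 68.5% of all tested genes were positive with it (median 0.0661). Within number series it was positive with 10 of 13, and had -0.175 with ATP5E, -0.160 with ATP5I and -0.196 with ATPIF1. SLC25A4 was positive with 10 of 13 (median 0.0667, highest 0.313 for ATP5C1), or 9 within series, where 45.1% of all genes were positive (median -0.0244). SLC25A6 was positive with 7 of 13, also within series, and its median of 0.0860 (highest 0.611 for ATP5G2) lay below its median of 0.183 over all genes, of which 67.1% were positive. SLC25A3, which supplies phosphate to this enzyme, had a rho of 0.660 with ATP5G1, 0.607 with ATP5G2, 0.583 with ATP5J2 and 0.511 with ATP5B, but -0.519 with the inhibitor ATPIF1 and -0.415 with ATP5J. Within number series these negative values became -0.182 and -0.0520, while ATP5G1 kept 0.631. SLC25A3 was positive with 6 of 13 (median -0.0775), where 52.6% of all tested genes were positive, and with 10 of 13 within series. Subunits of 1 enzyme thus did not move as a unit with the carrier.

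For the haem and iron-sulphur enzymes, SLC25A28, an iron importer of most tissues, had a median of 0.286 over 10 genes, with 0.499 for the cysteine desulphurase NFS1 and -0.245 for ALAS1, the first enzyme of hepatic haem synthesis. SLC25A38, which serves glycine import for haem synthesis, had a median of 0.194 with 0.462 for NFS1 and -0.0969 for ALAS1. SLC25A37 had a median of 0.120 and -0.175 for ALAS1. Over all livers ALAS1 had the lowest rho of the 10 genes with each of the 3 carriers. Within number series CPOX lay below ALAS1 for SLC25A38 (-0.134 against -0.0970) and close to it for SLC25A28 (-0.221 against -0.228). The medians of the 3 carriers over all tested genes were 0.0822 for SLC25A28, 0.0430 for SLC25A38 and 0.0239 for SLC25A37. Some carriers not matched to these enzymes had higher medians over them, with 0.389 for SLC25A11 and 0.354 for SLC25A10. SLC25A4 (0.0473) and SLC25A12 (0.0247) were lower. With NFS1 the rho of SLC25A3 was 0.696. The glutamate carrier SLC25A22 had a rho of 0.188 with GLS2, the liver glutaminase, and of -0.184 with GLUL, glutamine synthetase, which were 0.264 and -0.255 within number series. Over 6 folate enzymes SLC25A32 had a median of 0.110, with 3 of them positive, against a median of -0.142 over all tested genes. Its highest rho was 0.435 with MTFMT and its lowest -0.505 with SHMT1, the cytosolic serine hydroxymethyltransferase. Within series these weakened to 0.280 and -0.291. Over all tested genes the 5th and 95th percentiles of its rho were -0.493 and 0.534.

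In the current annotation of the pig genome UCP2 and UCP3 are direct neighbours, as are SLC25A5 and SLC25A43. The rho was 0.326 for UCP2 with UCP3 and 0.189 for SLC25A5 with SLC25A43 (0.318 and 0.301 within number series).

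Correlations with the carcass traits were small. At an FDR of 1%, adjusted by Benjamini-Hochberg over 24815 transcripts, 1 of 30 carriers was correlated with LEA, where 0.822% of all tested transcripts were called, 0 of 30 with FA (0.33% called) and 0 of 30 with MFR (0.193% called). At an unadjusted p under 0.05 there were 5 carriers for LEA, 8 for FA and 4 for MFR, beside 21.8%, 11.1% and 8.63% of all tested transcripts. Regression with limma called 1, 0 and 0 carriers as well. Within number series 0, 1 and 0 carriers were called, where 0.0201%, 0.576% and 0.524% of all tested transcripts were called. The median rho of the carriers was 0.0315 for LEA, 0.0443 for FA and 0.00832 for MFR, against -0.0127, -0.00552 and 0.00014 over all tested transcripts. No carrier had a relation with a trait that differed between number series at an FDR of 5% in limma's interaction test, with 7, 1 and 1 carriers at an unadjusted p under 0.05.

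SLC25A4 was the carrier correlated with LEA. In the 73 pigs with the largest LEA (47.6 cm2 or more) its log2 signal ranged from 10.94 to 11.73 with a median of 11.48, and in the 74 pigs with the smallest (39.7 cm2 or less) from 10.97 to 11.75 with a median of 11.38. The ranges overlapped almost completely, and the means differed by 0.10. Over all pigs with traits rho was 0.295 (permutation p = 1e-05) and r was 0.265 (permutation p = 2e-05), with an FDR of 0.000568. The rho was positive in 7 of 9 number series. LEA itself had 22.2% of its rank variance between number series, and within series rho was 0.196 with an FDR of 0.151, so the call was lost. It was also lost without number series 27 (rho = 0.244, FDR = 0.0230), after removal of 17 components (rho = 0.0427) and for the mean of both SLC25A4 probe sets (rho = 0.151). The second of these probe sets was below the filter and had the larger SD (0.35 against 0.17), so their mean tells little about the call. No cell type marker list had a rho above 0.170 in size with SLC25A4. At the other end, the lowest value for LEA was that of UCP3 (rho = -0.0994, permutation p = 0.0917, r = -0.0851 with p = 0.150, FDR = 0.307), which was -0.00284 within series.

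**Figure D4:**
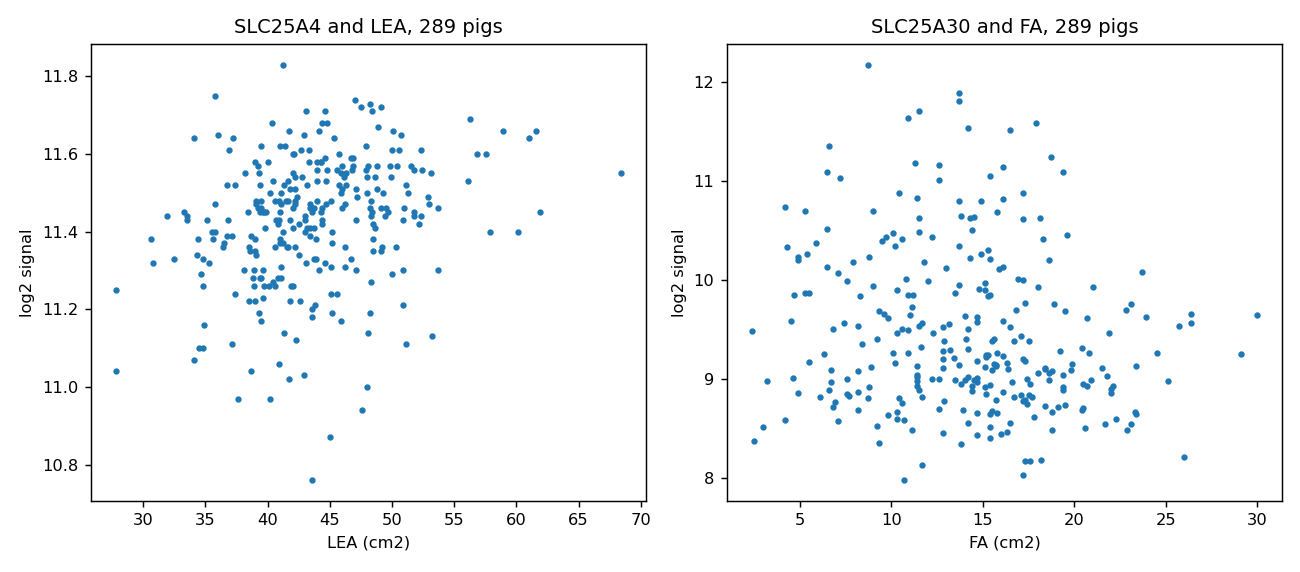
Log2 signal of SLC25A4 against LEA (left) and of SLC25A30 against FA (right), 1 point per pig. The points scatter widely around both relations, with a rho of 0.295 for SLC25A4 and of -0.166 for SLC25A30, which did not pass an FDR of 1%.

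For FA the lowest rho belonged to SLC25A30. Its signal ranged from 8.17 to 11.58 with a median of 9.06 in the 75 pigs with the largest FA (17.3 cm2 or more), and from 8.35 to 12.17 with a median of 9.50 in the 75 pigs with the smallest (10.6 cm2 or less). Over all pigs rho was -0.166 (permutation p = 0.00467) and r was -0.157 (permutation p = 0.00814), with an FDR of 0.157. Within number series rho was -0.242 with an FDR of 0.00839, and it was negative in 9 of 9 series, from -0.566 to -0.0636. This call within series was lost when any 1 of 8 number series was left out, with an FDR between 0.0149 and 0.0450, and kept without 29 (rho = -0.324, FDR = 0.00201). For SLC25A30 and MFR the rho was -0.127 (permutation p = 0.0313, r = -0.113 with p = 0.0546, FDR = 0.494) and -0.211 within series (FDR = 0.0308), negative in 9 of 9 series.

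The highest rho with both FA and MFR belonged to SLC25A22, the glutamate carrier. Its median was 6.52 (5.69 to 7.37) in the 73 pigs with the largest MFR (0.42 or more) and 6.38 (5.46 to 7.08) in the 85 pigs with the smallest (0.24 or less). Its rho was 0.150 with FA (permutation p = 0.0108, r = 0.168 with p = 0.00429, FDR = 0.232) and 0.168 with MFR (permutation p = 0.00399, r = 0.186 with p = 0.00152, FDR = 0.210), and 7 of 9 number series were positive for each trait. Neither passed the FDR. With the 2 pigs of most extreme trait value left out, r was 0.266 for SLC25A4 with LEA, -0.162 for SLC25A30 with FA and 0.161 for SLC25A22 with MFR. In all, 6 such relations were named for the 3 traits, and their FDR values are over all tested transcripts.

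By role, the citrate, dicarboxylate and oxoglutarate carriers had a rho above 0 with FA and with MFR in 6 of 6 members, with medians of 0.107 and 0.106, where 46.7% and 50.1% of all tested transcripts were above 0. The 6 included the orphans SLC25A34 and SLC25A35. SLC25A1 had 0.144 and 0.153, SLC25A11 had 0.129 and 0.112, and none of the 6 was called. Since 4 of these carriers were closely co-expressed, they are not separate observations. The 6 cofactor and nucleotide carriers had a rho above 0 with LEA in 6 of 6 members (median 0.116), where 45.1% of all tested transcripts were above 0, from 0.0511 for SLC25A26 to 0.147 for SLC25A36, and within number series their median was -0.0113. SLC25A12 had the second highest rho with LEA (0.177, FDR = 0.0572), which was 0.0620 within series. The ADP/ATP carriers were mixed, with -0.0985 for SLC25A5 and 0.00154 for SLC25A6 beside SLC25A4. UCP2, UCP3, SLC25A27 and SLC25A30 were below 0 with MFR, from -0.127 to -0.0188. The amino acid carriers, the iron and glutathione carriers and SLC25A43 had a rho between -0.0788 and 0.177 for LEA, and between -0.0905 and 0.150 for FA.

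**Figure D5:**
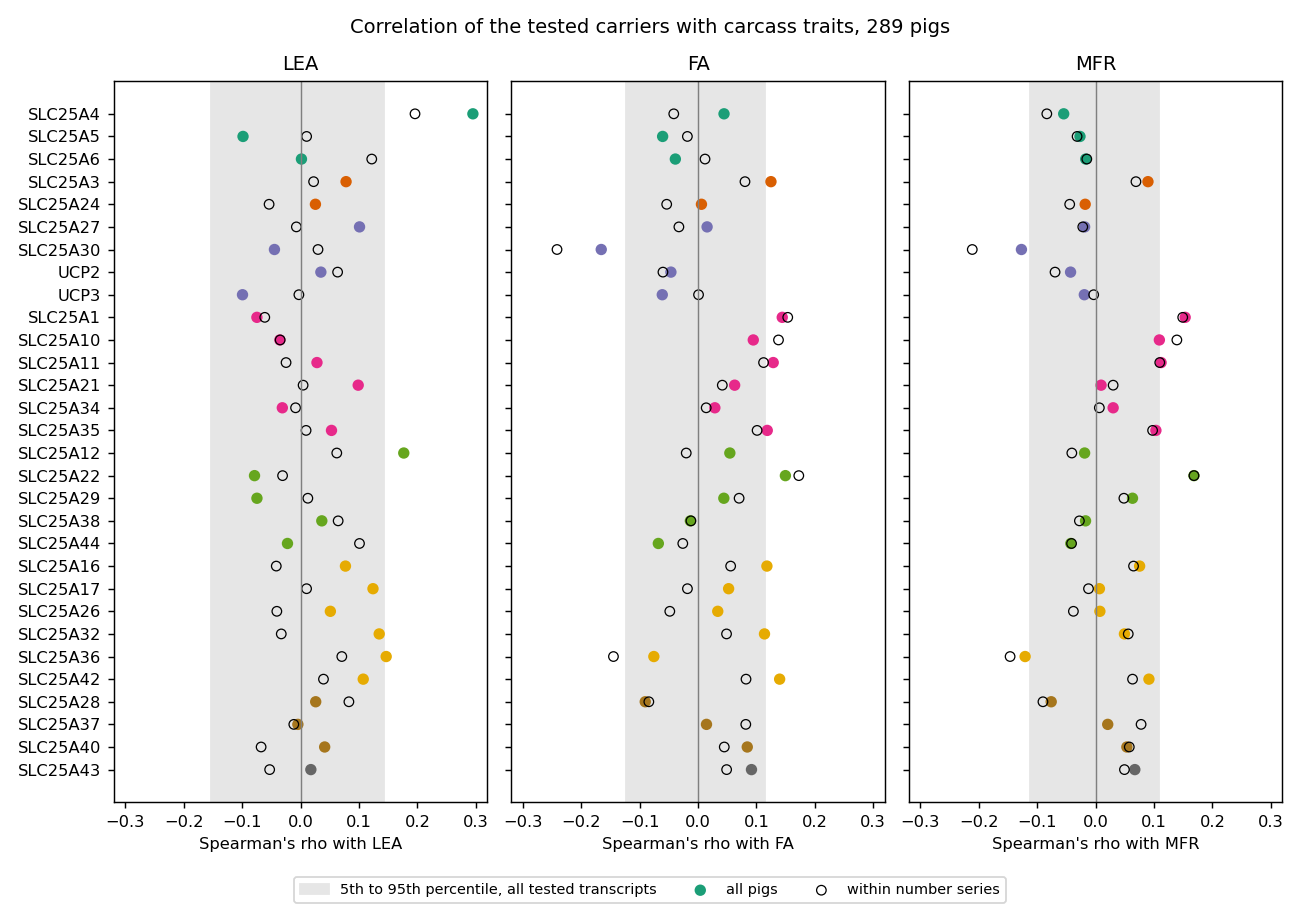
Spearman's rho of the 30 tested carriers with LEA, FA and MFR in all pigs with traits. Filled points are over all pigs and coloured by role, open points are within number series, and the grey band holds the 5th to 95th percentile of all tested transcripts. SLC25A4 lies at 0.295 for LEA and 0.196 within series, and SLC25A30 lies at -0.166 for FA and at -0.242 within series.

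Of the 72 tested genes around the carriers 1, 2 and 2 were called for LEA, FA and MFR. Of all tested transcripts 0.822%, 0.33% and 0.193% were called. The lists were chosen with earlier results of these data known, and these shares were not compared by a test. Of 4 enzymes of the malate-aspartate shuttle, GOT1 was lower with LEA (rho = -0.270, FDR = 0.00204) and higher with MFR (rho = 0.260, FDR = 0.00485). Within number series its call for LEA was lost (rho = -0.214, FDR = 0.0885), and that for MFR was kept (rho = 0.267, FDR = 0.00210). Of 6 genes around cytosolic citrate and acetyl-CoA, FASN, fatty acid synthase, was higher with FA (rho = 0.262, FDR = 0.00438). All 6 had a rho above 0 with FA (median 0.203), where 46.7% of all tested transcripts were above 0. The study named ACACA and ACSS2 among the hubs of 1 co-expression module, so the 6 are not all separate observations. Of 4 glutamate and glutamine enzymes, GLS2 was higher with FA (rho = 0.246, FDR = 0.00813) and MFR (rho = 0.267, FDR = 0.00306). None was called for any trait among 13 genes of ATP synthase, 10 of outer membrane channels and carrier import and 9 further carriers. The same held for 10 haem and iron-sulphur enzymes, 6 folate enzymes, 3 genes of calcium and metal transport and 7 regulators of mitochondrial biogenesis. Over these 7 lists the largest rho in size were with FA, at -0.235 for SLC25A25 (FDR = 0.0129) and 0.218 for ATP5G3 (FDR = 0.0282). Within number series both were called for FA, with a rho of -0.243 for SLC25A25 (FDR = 0.00784) and 0.246 for ATP5G3 (FDR = 0.00689). Of all 72 list genes 0, 8 and 4 were called within number series for LEA, FA and MFR. Of all tested transcripts 0.0201%, 0.576% and 0.524% were called in this setting. The 8 for FA also held GOT1, GLS2 and 4 of the 6 genes around cytosolic citrate and acetyl-CoA, FASN, ACACA, ME1 and ACSS2. These 4 were higher with FA in this setting. ACLY (rho = 0.128, FDR = 0.318) and ACO1 (rho = 0.124, FDR = 0.339) of that list were not called. The calls for MFR were GOT1, GLS2, ACACA and ACSS2. With LEA the largest rho in size in the 7 lists were -0.167 for ATP5E and -0.146 for ATPIF1, 0.171 for TIMM9 and 0.148 for TIMM8A, 0.175 for SLC25A13 and 0.159 for SFXN4, -0.131 for ALAS2 and 0.120 for UROS, 0.193 for ALDH1L2 and 0.118 for MTFMT, 0.0886 for ABCB6 and 0.0604 for ABCB10, and 0.187 for TFB1M and -0.138 for PPARGC1A. MDH1 (0.104) followed GOT1, FASN had 0.143 and ACSS2 -0.121, and GLS2 had -0.130 and GLUL 0.111.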

How the data were processed

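RNA from the livers of 297 pigs was measured on Snowball arrays (Affymetrix), 1 array for each pig. Per the study's methods, the authors made the deposited log2 signals by the robust multichip average in Expression Console over all arrays, and the submitters' processing notes also name GCOS 1.1.1. The table holds 47845 probe sets, and its 123 controls were removed. The annotation names 1 gene for 26426 probe sets, none for 21296 and several for 0. The upper 52% by the 20th percentile of signal (24815 transcripts) were tested, in place of the authors' detection filter. This gave 10479 tested genes. The residuals the study correlated could not be formed, because genotypes, gender and carcass weight were not used here, so the values were used as deposited.

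Spearman correlations with LEA, FA and MFR were computed over 289 pigs (8 had no trait), with p from the t distribution, Benjamini-Hochberg adjustment over 24815 transcripts and calls at an FDR of 1%. Named relations and pairs had 100000 permutations with both tails. The permutations ran over all pigs without regard to number series or kinship. Pairs were adjusted over all 54899481 pairs of tested genes and not over the carriers' own pairs. Number series were compared with limma. Each pig is 1 sample, so no technical error was measured. A named carrier was one called for a trait, with the highest or lowest rho for a trait, among the 5 highest or lowest means or the 5 largest SDs, or in the 6 highest or 4 lowest pairs. Genes outside the examined set were the 3 with the highest rho for each carrier called or of large SD. Members of the family, lists and tests were chosen with earlier results of these data known. The substrate lists matched to single carriers and the most opposed gene of SLC25A30 were chosen after the data had been seen. The tests were tried on simulated data first.

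Alternatives were Pearson correlation, limma regression, centring of ranks in each number series, 5 or 17 principal components removed, centring of arrays, extreme pigs left out, each number series left out, all probe sets, the upper part by mean signal, the mean over a gene's probe sets, and an FDR of 5%. Calculations used limma 3.58.1 in R 4.3.3 and scipy 1.17.1, pandas 2.3.3 and numpy 2.4.6 in Python 3.11.15, and plots matplotlib 3.10.9.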

Additional observations from a re-analysis of the deposited data

How the results depend on the processing

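The count of 1 carrier called for LEA became 0 within number series, without 17 principal components and for the mean over the gene's probe sets, and it ranged from 0 to 1 when each number series was left out, with 0 without series 27. The count of 0 for FA became 1 within number series, while 0 remained under each other setting and in each number series left out. For MFR it was 0 under every setting run. The 23 pairs with a rho of at least 0.5 in size became 0 without 5 principal components, 9 without the first (chosen after seeing the data) and 11 for the mean over the gene's probe sets, 8 of which were shared. They ranged from 13 to 33 when each number series was left out, with 13 without series 29 and 33 without series 23. The mean over a gene's probe sets also took in probe sets below the filter, as for SLC25A4. Counts under that setting therefore cannot show how far the calls and pairs depend on the choice of probe set. Without 5 components, UCP3 with LEA turned to a rho of 0.0211, and SLC25A6 with SLC25A21 to a rho of 0.0194. The cause was not tested. The settings with removed components also remove differences between livers that are not technical.

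No paired analysis was possible because all pigs form 1 group. Number series and LEA were not independent (22.2% of the rank variance of LEA lay between series), so a relation with LEA and a difference between series cannot be told apart fully. Centring each array on its median changed no count by more than 1.5 times.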
